A study of Homo sapiens with 18 samples.

Results

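PADI4, KITLG and CEL are 3 genes of the 23368 gene rows in the deposited RNA sequencing tables, and each is listed among the target genes of the transcription factor p53. They were chosen by their read levels, which in SJSA osteosarcoma cells were much lower when the p53 activator Nutlin was given together with continuous palbociclib than when Nutlin was given alone. Those values, the Nutlin and the N+PD30 libraries, therefore describe the choice and carry no test here. What the choice did not use is how the genes behaved with palbociclib alone, and whether they came back after the drug was removed.

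SJSA is an established human osteosarcoma line with amplified MDM2 and CDK4 genes, so MDM2 is already highly abundant in the controls. Every group consisted of these cells and had 3 replicate libraries, 18 in all. The 6 groups were the DMSO control, Nutlin (20 µM by the labels, 6 h), PD24 (palbociclib, also called PD0332991, 10 µM for 24 h and then removed), PD30 (the same dose kept for 30 h), N+PD24 and N+PD30. In both combinations Nutlin was present during the final 6 h, so in N+PD24 it followed removal of the CDK inhibitor and in N+PD30 the inhibitor stayed. The treatment scheme of the study also lists a lower Nutlin concentration. The study describes the replicates as biological, and the sample labels do not say whether they came from separate cultures, so the p-values measure the spread between these libraries.

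Nutlin blocks the pocket of MDM2 that holds p53, so p53 escapes degradation and activates its targets. Palbociclib inhibits CDK4 and CDK6, the kinases that free E2F factors from the retinoblastoma protein, and arrests cells before DNA synthesis. PADI4 encodes a calcium-dependent enzyme that turns arginine in proteins, histones included, into citrulline, and it is best known from neutrophils. KITLG encodes stem cell factor, the ligand of the receptor tyrosine kinase KIT. CEL encodes the bile-salt-dependent lipase of pancreatic juice, and its pseudogene CELP lies next to it.

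In GRCh37 coordinates with GENCODE annotation, PADI4 occupies chr1:17634690-17690499 on the plus strand, within the cluster of peptidylarginine deiminase genes. KITLG occupies chr12:88886570-88974628 on the minus strand, and CEL occupies chr9:135937368-135947248 on the plus strand. An antisense gene overlaps PADI4 and another overlaps KITLG. Neither has a row in the count tables, and the counting used the strand setting for reversed reads.

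The promoters are shown because the 3 genes responded to the same stimulus from very different starting levels. For each gene, 30 bases from 45 to 16 bases before the RefSeq start site were read, with TATAAA and GGGCGGG in capitals, and the sequences matched GRCh37 at chr1:17634647-17634676 (plus strand), chr12:88974264-88974293 (minus strand) and chr9:135937323-135937352 (plus strand).
PADI4 promoter: gcctctgctgggcgaTATAAAggaaccagc
KITLG promoter: aggcGGGCGGGaactgTATAAAagcgccgg
CEL promoter: accttggatccagctccataaatacccgag

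TATAAA began 30 bases before the start of PADI4 and 29 bases before that of KITLG, and it was not found for CEL. Searched on both strands of the full 300-base windows, from 250 bases before to 50 after each start, it was present in 11.5% of 35116 RefSeq promoters. GGGCGGG began 41 bases before the start of KITLG, was absent from the other two windows and occurred in 33.1% of all promoters. The letters TTTGAA, TTTCGCGC and CACGTG, which occurred in 15.2%, 0.515% and 7.26% of promoters, were found in none of the 3. KITLG had the most GC-rich promoter, with 69.2% G or C and 26 CpG dinucleotides in the 250 bases before its start, against 61.2% and 3 for both PADI4 and CEL.

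The p53 consensus element, a 20-base pair of RRRCWWGYYY motifs, was searched within 5 kb on either side of each gene start, with up to 2 mismatches and none in the CWWG cores. Only PADI4 among the 3 genes had a match. It carried 1 mismatch and lay in an intron, 1708 bases downstream of the start, at chr1:17636389-17636408 on the plus strand. It is printed with 40 bases on each side and the cores in capitals.
PADI4 intronic element: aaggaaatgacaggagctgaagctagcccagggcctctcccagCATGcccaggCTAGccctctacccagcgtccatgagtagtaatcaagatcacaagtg

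A match with at most 1 mismatch occurred in the windows of 0.883% of 20155 protein-coding genes, and in 6.34% of 142 other genes of the p53 target list. With at most 2 mismatches the shares were 4.95% and 23.2%. These matches are descriptions of the letters, and windows without a match say nothing about binding of p53 to KITLG or CEL.

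Levels are given as counts scaled per 1000000 reads (CPM), each library scaled by its own total, and are compared between groups for 1 gene at a time, not between genes. The library totals ranged from 12704845 to 40231041 counts with a median of 29608936, so PADI4 and CEL rest on few reads and KITLG on many. Of the osteoblast lineage markers, RUNX2 was at 18.2 to 34.5 CPM and COL1A1 at 1122 to 3697 CPM in all libraries, whereas SP7 stayed at or below 0.244 CPM. All 25 cell cycle genes fell in PD30 and in PD24 against DMSO, where 25.4% and 20.8% of all genes fell. Their summed level was 231.2 to 291.1 CPM in PD30, 305.8 to 432.3 CPM in PD24 and 6056 to 6458 CPM in DMSO. Cells taken after removal of the drug had thus not regained the summed cell cycle RNA level of the control. In PD24 against PD30, 8 of the 25 were higher and 2 lower, beside 12.9% and 12.2% of all genes.

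PADI4 was almost silent without Nutlin and higher with it in each of the 3 settings, with the highest mean for Nutlin alone. The DMSO libraries held 0.0303, 0.104 and 0.0647 CPM, from 1, 3 and 2 counts. The Nutlin libraries held 1.70, 2.997 and 2.73 CPM, from 52, 90 and 74 counts. The N+PD30 libraries held 0.315, 0.370 and 0.339 CPM, from 4, 11 and 7 counts. All N+PD30 values thus lay below all Nutlin values and above all DMSO values.

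After removal of palbociclib PADI4 stood in between. The N+PD24 libraries held 1.11, 1.43 and 1.88 CPM, from 27, 53 and 52 counts. All 3 lay above every N+PD30 library, while the highest of them overlapped the lowest Nutlin library. Without Nutlin, PD24 gave 0.238, 0.211 and 0.0994 CPM, and PD30 gave 0 in 2 libraries and 0.0556 CPM, from 2 counts, in the other.

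KITLG had its lowest level with continuous palbociclib alone. The DMSO libraries held 19.6, 19.004 and 22.5 CPM, and the Nutlin libraries 58.0, 42.5 and 41.5 CPM. In N+PD30 they held 14.01, 15.02 and 13.8 CPM, below each DMSO library. In PD30 they held 3.69, 2.67 and 2.19 CPM, below every library of the other groups.

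With the drug removed KITLG was higher than with the drug kept, in both settings. The PD24 libraries held 17.3, 13.1 and 17.0 CPM, below the DMSO libraries, and the N+PD24 libraries held 33.4, 27.7 and 40.7 CPM, below the Nutlin libraries. The order of the group means ran from Nutlin (47.3 CPM ± 9.28, SD, n = 3) over N+PD24 (33.9 ± 6.50), DMSO (20.4 ± 1.85), PD24 (15.8 ± 2.33) and N+PD30 (14.3 ± 0.670) to PD30 (2.85 ± 0.765). In that order only PD24 and N+PD30 overlapped.

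CEL was low in the 9 libraries without Nutlin, at 0.250 to 0.454 CPM. The DMSO libraries held 0.303, 0.347 and 0.323 CPM, PD24 0.272, 0.253 and 0.298 CPM, and PD30 0.344, 0.250 and 0.454 CPM. With Nutlin alone they held 2.13, 2.73 and 2.06 CPM. The N+PD30 libraries held 0.866, 0.806 and 0.387 CPM, of which the lowest overlapped the PD30 libraries.

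After removal of the drug CEL was 0.861, 1.25 and 1.41 CPM in N+PD24, below every Nutlin library. The lowest of these values overlapped the highest N+PD30 values, which was not so for PADI4 or KITLG. In the order of its means, Nutlin (2.31 CPM ± 0.368, SD, n = 3) stood apart from N+PD24 (1.17 ± 0.281), and N+PD24, N+PD30 (0.687 ± 0.261), PD30 (0.350 ± 0.102) and DMSO (0.324 ± 0.0219) each overlapped the next in turn. PD24 (0.274 ± 0.0228) came last, with all 3 libraries below those of DMSO. They held 26 counts against 30 in DMSO, a ratio of 0.861 with an exact 95% counting interval of 0.489 to 1.51. No difference was thus detectable at this depth.

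**Figure D1:**
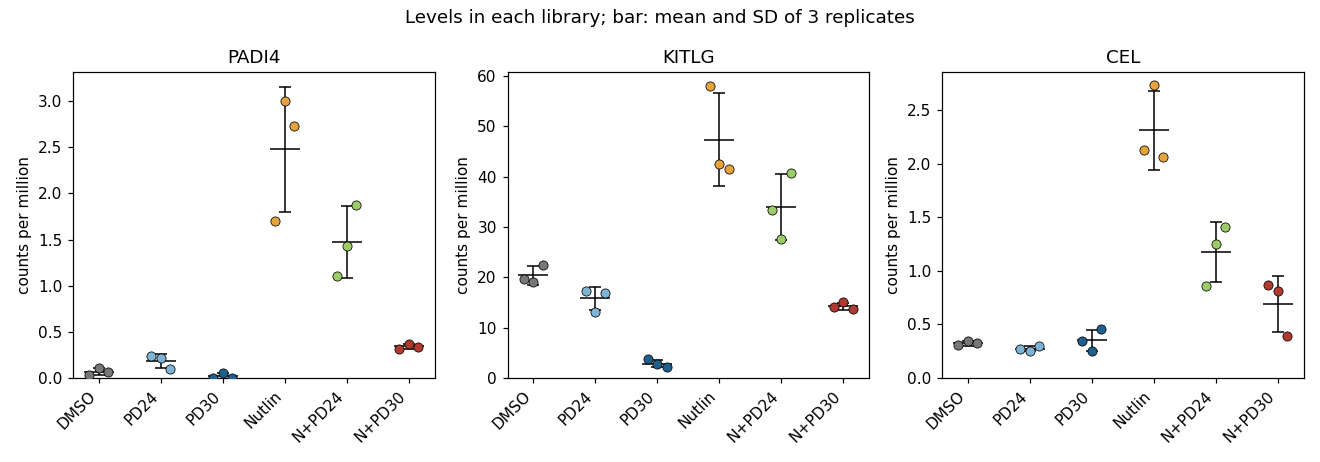
CPM (linear axis) of PADI4, KITLG and CEL in each library of the 6 groups, as points, with a bar for the mean and SD of 3 replicates. KITLG is lower in PD30, at 2.19 to 3.69 CPM, than in DMSO, and in N+PD24 each gene has a higher mean than in N+PD30.

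The first question was whether continuous palbociclib lowers the genes when p53 is not activated. KITLG fell 7.27-fold in PD30 against DMSO (log2 fold change -2.86, SE 0.187, adjusted p = 2.11e-06, edgeR quasi-likelihood test adjusted over 15125 genes). It was 1 of 2 members with enough reads for the test, and 25.4% of all tested genes fell in this comparison. In the same edgeR fit CEL differed by 0.09 on the log2 scale (SE 0.336, adjusted p = 0.843) and its libraries overlapped. PADI4, too low for the test, had 2 counts over 3 libraries in PD30 and 6 in DMSO, a ratio of 0.309 with an exact 95% counting interval from 0.0305 to 1.73, so no difference was detectable at this depth. Such intervals cover counting error only.

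KITLG was also extreme among the p53 targets here. Of 135 other genes of the p53 target list that were tested, 134 had a higher log2 fold change in PD30 against DMSO and 1 had a lower one. In PD24 against DMSO 30 of 136 rose and 38 fell, against 17.5% and 20.8% of all genes. In PD30 against DMSO 30 of 135 rose and 38 fell, against 22.9% and 25.4% of all genes, with a median log2 fold change of -0.02 beside 0.00 over all genes.

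The next question was whether removal changes the genes without Nutlin. KITLG was 5.71-fold higher in PD24 than in PD30 (log2 fold change 2.51, SE 0.209, adjusted p = 0.000218, edgeR), while 12.9% of 15171 tested genes were higher and 12.2% lower. Against DMSO, PD24 libraries were 1.27-fold lower (log2 fold change -0.34, SE 0.136, adjusted p = 0.0753, edgeR), where 20.8% of 15094 genes were lower. The PD24 and DMSO libraries correlated by replicate number, and with the replicate number as a block this difference passed the test (log2 fold change -0.35, adjusted p = 0.0426, edgeR). By mean level, PD24 recovered 73.9% ± 13.3 (SD, n = 3) of the gap between PD30 and DMSO, where the SD holds the spread of the PD24 libraries only.

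PADI4 and CEL had too few reads for the tests of PD24. PADI4 had 16 counts in PD24 and 2 in PD30, a ratio of 8.58 with an exact 95% counting interval of 2.02 to 77.0. In an edgeR fit without the filter on low counts its log2 fold change was 2.93 (SE 0.983, adjusted p = 0.0469). In 1 fit over 15 libraries it was 2.89 (SE 0.808). PADI4 passed the count filter of that fit only through libraries with Nutlin, in which it was high, so that fit is no test of it. Against DMSO, with 6 counts, PD24 gave a ratio of 2.65 (0.985 to 8.26). CEL had 26 counts in PD24 and 35 in PD30, a ratio of 0.797 (0.461 to 1.36).

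The third question was whether the genes respond to Nutlin once palbociclib is gone. KITLG rose in N+PD24 against PD24, by 1.09 on the scale log2(CPM + 0.1) (SE 0.177, adjusted p = 0.00142, limma), beside 10.8% of 14897 genes that rose. PADI4 and CEL reached the level filter of this test only through the N+PD24 libraries in which they were high, so that fit is no test of them. Without the filter PADI4 was higher by 2.48 (adjusted p = 0.00042) and CEL by 1.74 (adjusted p = 0.00132) in limma, on a scale that understates changes of low genes. For each gene all 3 N+PD24 libraries lay above all 3 PD24 libraries, a description for which the share over all genes was not counted. As ratios of summed counts, PADI4 was 8.66-fold higher with an exact 95% counting interval of 5.14 to 15.6. KITLG was 2.07-fold higher (1.94 to 2.20) and CEL was 4.28-fold higher (2.76 to 6.85).

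The fold response of KITLG to Nutlin was larger with palbociclib present. With summed counts, Nutlin alone raised KITLG 2.34-fold (2.21 to 2.47) and raised it 5.16-fold (4.50 to 5.92) in the presence of palbociclib. Its lower level in N+PD30 than in Nutlin was thus accompanied by a larger, not a smaller, fold response, from a starting level that was 7.29-fold lower (6.43 to 8.30). In mean CPM the rise was smaller with palbociclib present, from 2.85 to 14.3, than with Nutlin alone, from 20.4 to 47.3. In 1 limma fit over the 18 libraries, the effect of Nutlin on KITLG with PD30 exceeded its effect alone by 1.12 (log2, SE 0.262). After removal the effect was 0.11 below that alone (SE 0.262). These differences share libraries with the choice of the genes and were not tested.

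For CEL the fold response was smaller with palbociclib present. Nutlin alone raised it 7.16-fold (4.86 to 10.9) but only 1.95-fold (1.22 to 3.14) with palbociclib present, from a similar starting level. In the fit over 18 libraries its Nutlin effect with PD30 was lower by 1.73 (log2, SE 0.380) than alone, and after removal it was lower by 0.75 (SE 0.380).

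For PADI4 the pattern depends on the scale. Nutlin alone raised it 38.1-fold (17.2 to 104.9) and, with palbociclib present, 17.5-fold (4.29 to 153.2), and these counting intervals overlap because the starting levels rest on 6 and 2 counts. After removal the ratio was 8.66 (5.14 to 15.6), from a higher starting level. On the log2(CPM + 0.1) scale its Nutlin effect was lower by 2.01 (SE 0.423) with PD30 and lower by 1.46 (SE 0.423) after removal than alone.

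**Figure D2:**
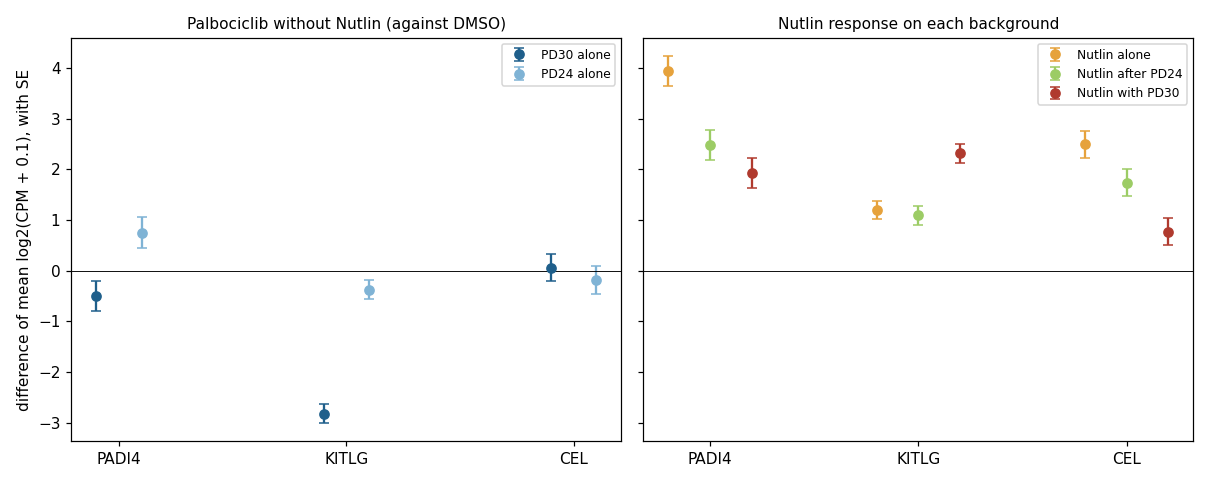
Differences of mean log2(CPM + 0.1), with SE, from 1 limma fit over the 18 libraries, for palbociclib without Nutlin (left) and for the Nutlin response on each background (right). On this scale the Nutlin response of KITLG is larger with PD30 than alone by 1.12, whereas those of PADI4 and CEL are smaller by 2.01 and 1.73.

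By how much the genes came back under Nutlin is a description, since N+PD24 is set here against the groups that chose them. N+PD24 recovered 59.5% ± 19.7 (SD, n = 3) of the gap in mean CPM between N+PD30 and Nutlin for KITLG, 53.02% ± 18.1 for PADI4 and 29.9% ± 17.3 for CEL. Each N+PD24 library was set against the means of the other groups. The SD therefore leaves out the spread of the Nutlin and N+PD30 libraries and uses no pairing by replicate number. The spread between N+PD24 replicates is larger than the difference between KITLG and PADI4. For each gene replicate 1 or 2 of N+PD24 gave the lowest value and replicate 3 the highest, at 79.9% for KITLG, 72.0% for PADI4 and 44.5% for CEL.

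In fold terms, PADI4 was 4.32-fold higher in N+PD24 than in N+PD30 by mean CPM, KITLG 2.38-fold and CEL 1.71-fold. Against Nutlin alone the N+PD24 means were 59.5%, 71.7% and 50.7% of the Nutlin mean, and those of N+PD30 were 13.8%, 30.1% and 29.7%. These are the values that made the choice, and the drop from Nutlin to N+PD30 was -2.86 on the log2 scale for PADI4 (SE 0.338), -1.77 for KITLG (SE 0.165) and -1.80 for CEL (SE 0.326) in the edgeR fit.

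Among 143 other genes of the p53 target list in that comparison, none had a lower log2 fold change than PADI4 and 4 lay between PADI4 and CEL. The members were chosen by this comparison, so their place in it describes the choice. Just inside the range were INPP5D, a lipid phosphatase (-2.66), SFN, the cell cycle inhibitor 14-3-3 sigma (-2.64), TNFRSF10A, a TRAIL death receptor (-2.14), and CMYA5, a muscle protein (-1.94). Just outside were MDM2, the ubiquitin ligase that restrains p53 (-1.70), the lipid transporter gene ABCA12 (-1.69) and the receptor gene NOTCH1 (-1.66).

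Most of the listed p53 targets rose with Nutlin, with or without palbociclib. With Nutlin alone 108 of 141 other p53 targets rose and 9 fell, against 26.6% and 28% of all genes. In N+PD30 against PD30 107 of 140 rose, against 8.84% of all genes, and 0 fell in edgeR or DESeq2, against 5.64% of all genes, with 1 lower at an unadjusted p under 0.05 in edgeR. In N+PD30 against Nutlin 45 of 143 were higher and 35 lower, beside 24.3% and 24.7% of all genes, with a median log2 fold change of -0.01. After removal, 91 of 139 rose and 8 fell in N+PD24 against PD24, against 10.8% and 27.3% of all genes. The lower genes numbered 3 without PD24 replicate 1 and also without N+PD24 replicate 2.

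**Figure D3:**
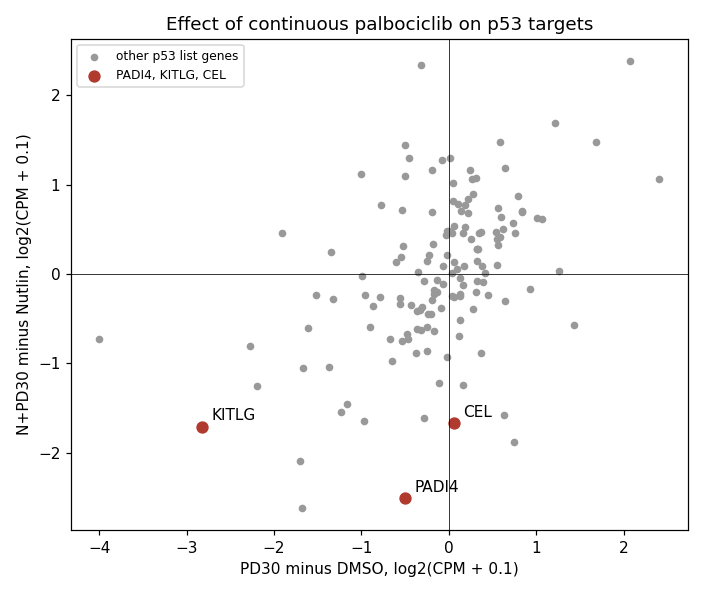
Difference PD30 minus DMSO (horizontal) against N+PD30 minus Nutlin (vertical), both on log2(CPM + 0.1) from 1 limma fit over the 18 libraries, for 143 other p53 target genes (grey) and the 3 members (red). KITLG lies left of all other genes but 1, being lower without Nutlin too, and PADI4 and CEL lie low but near the vertical zero line. The horizontal value of PADI4 rests on 2 counts in PD30 and 6 in DMSO. The added 0.1 CPM shrinks that value, so its place does not show that PADI4 was unchanged.

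When palbociclib was removed under Nutlin, the share of listed p53 targets that rose was near that of all genes, and a larger share fell. In N+PD24 against N+PD30, 17 of 139 were higher and 47 lower, beside 12.1% and 20.6% of all genes, with a median log2 fold change of -0.19 beside -0.11 over all genes (limma). The count of lower genes was 24 without N+PD24 replicate 2 and 28 without N+PD30 replicate 2. Among those that rose were TNFRSF10A, the potassium channel gene KCNN4 and ASTN2, an astrotactin. The largest falls were in the stress gene DDIT4, from 43.3 to 5.39 CPM, then LPIN1, PANK1 and KLHL26.

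Single p53 targets differed in their levels after removal. TNFRSF10A averaged 0.596 CPM in N+PD30, 2.49 in N+PD24 and 2.47 in Nutlin, and its N+PD24 and Nutlin libraries did not differ beyond their spread (difference 0.03 on the log2 scale, SE 0.249). INPP5D averaged 8.46 CPM in N+PD30, 10.6 in N+PD24 and 52.2 in Nutlin. SFN averaged 0.199, 0.582 and 1.18 CPM in the same order, CMYA5 0.392, 0.873 and 1.39 CPM, ABCA12 3.04, 6.37 and 9.57 CPM, and NOTCH1 29.002, 48.6 and 89.0 CPM. MDM2 averaged 7293, 11183 and 22914 CPM. Of the p53 targets that fell less, CDKN1A, the CDK inhibitor p21, averaged 2377, 4648 and 3984 CPM, and TP53I3, a quinone oxidoreductase, averaged 134.6, 174.7 and 222.2 CPM. As a share of the Nutlin mean, all 3 members lay between INPP5D and TNFRSF10A in N+PD24.

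Without Nutlin, 22 of 134 listed p53 targets were higher in PD24 than in PD30 and 17 were lower, shares near the 12.9% and 12.2% of all genes. With the replicate block the lower genes numbered 29. The higher genes numbered 12 without PD24 replicate 1 and 11 without PD30 replicate 1, and the lower ones 11 without PD30 replicate 3. KITLG had a larger log2 fold change than 132 of these genes. KCNN4 (2.76), RRAD and CX3CL1 were among those that rose, and LPIN1, VWCE, PANK1 and ORAI3 fell the most. In N+PD24 against Nutlin, 19 of 140 were higher and 37 lower, beside 14.1% and 20.9% of all genes, and 32 and 59 with the replicate block. The lower genes numbered 22 without Nutlin replicate 1, 21 without Nutlin replicate 2 and 18 without N+PD24 replicate 2, and the higher ones 12 without Nutlin replicate 2.

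The 3 other deiminase genes with enough reads also rose with Nutlin alone (edgeR), where 26.6% of all genes rose. PADI2, with 4, 1 and 3 counts in DMSO, passed the count filter there only through the Nutlin libraries. PADI1 ended higher after removal than with Nutlin alone. PADI1 and PADI3 encode deiminases of the epidermis, PADI2 a widely expressed one and PADI6 one of the oocyte. PADI1 averaged 5.54 CPM in DMSO, 32.0 in Nutlin, 8.80 in N+PD30 and 67.2 ± 7.31 (SD, n = 3) in N+PD24, so after removal it was higher than with Nutlin alone by 1.07 on the log2 scale (SE 0.132, adjusted p = 0.000454, limma). It had risen without Nutlin too, to 13.3 CPM in PD24 against 5.79 in PD30 (log2 fold change 1.24, adjusted p = 0.00732, edgeR).

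PADI2 averaged 0.714 CPM in Nutlin, 0.189 in N+PD30 and 1.45 ± 0.828 in N+PD24, where replicate 1 held 0.574 and replicate 2 held 2.22. It was higher in N+PD24 than in N+PD30 by 2.26 (log2, limma). PADI2 reached the level filter of that contrast only through the N+PD24 libraries, so that fit is no test of it. PADI3 varied least, with 44.9, 35.0 and 52.2 CPM. PADI6 had at most 5 counts in any library. PADI1, like the members, fell between Nutlin and N+PD30, by 1.88 on the log2 scale, and PADI2 fell by 1.93.

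**Figure D4:**
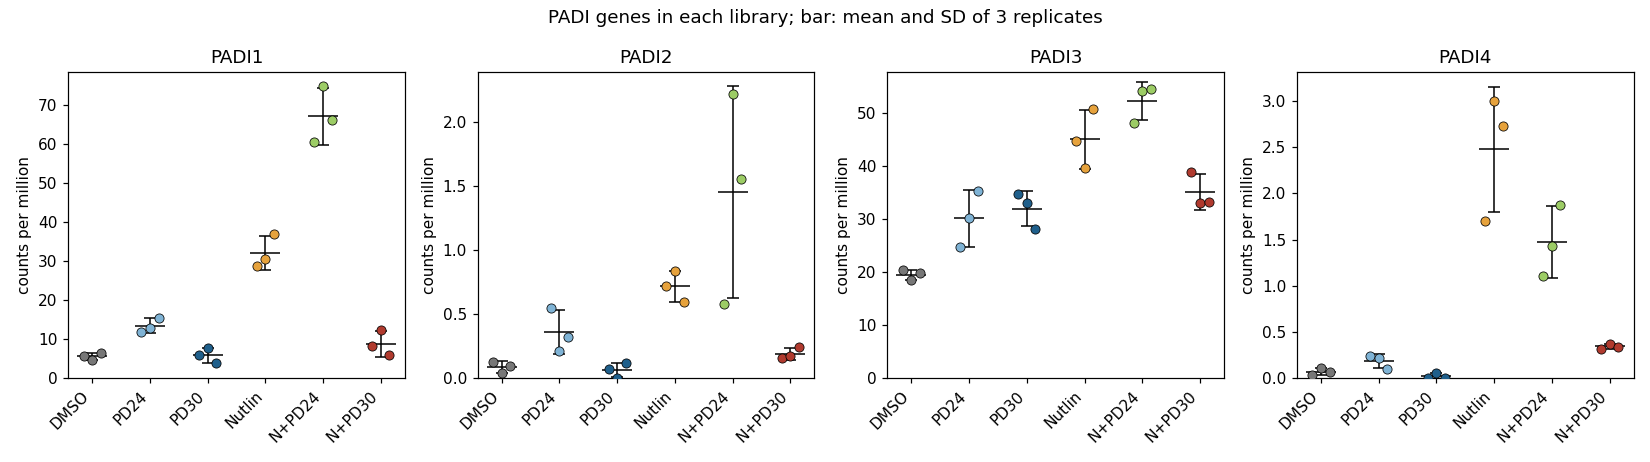
CPM (linear axes, 1 scale per gene) of PADI1, PADI2, PADI3 and PADI4 in each library, with the mean and SD of 3 replicates. PADI1 is higher in N+PD24 (60.4 to 74.9 CPM) than in Nutlin (28.7 to 36.9 CPM), whereas PADI4 is lower in its N+PD24 mean than in its Nutlin mean.

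Next to the cluster, RCC2, which regulates chromosome condensation, averaged 208.3 CPM in DMSO and 88.5 in PD30 and fell by 1.25 on the log2 scale with palbociclib (adjusted p = 8.8e-07, edgeR), beside 209.5 CPM in Nutlin. The nearest genes on either side of KITLG were CEP290, TMTC3, DUSP6 and POC1B. Their log2 fold changes in N+PD30 against Nutlin ranged from -0.46 for TMTC3 to -0.14 for DUSP6, with adjusted p of 0.0633 and 0.435 in edgeR, beside -1.77 for KITLG. TMTC3 fell in PD30 against DMSO, by 0.54. DUSP6, a phosphatase of ERK kinases, was highest in PD24, at 44.1 CPM ± 14.4 (SD, n = 3).

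Relatives of KITLG among ligands and receptors of its kinase family were not uniform. Of 12 others, 12 were tested in PD30 against DMSO and 5 of them fell, where 25.4% of all genes fell, with a median log2 fold change of -0.29. IL34, a ligand of the receptor CSF1R, held 13.7, 16.3 and 15.03 CPM in DMSO and 7.34, 6.09 and 6.05 CPM in PD30 (log2 fold change -1.23, SE 0.134, adjusted p = 7.13e-05, edgeR). It returned to 13.9 CPM in PD24 and to 19.7 CPM in N+PD24, beside 20.3 CPM in Nutlin and 6.42 CPM in N+PD30. IL34 thus fell and came back as KITLG did, but it rose only 1.48-fold with Nutlin alone.

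CSF1R itself rose with Nutlin from 0.505 to 3.86 CPM, stood at 1.27 CPM in N+PD30 and at 4.34 CPM in N+PD24. It was higher in N+PD24 than in N+PD30 by 1.68 on the log2 scale (SE 0.277, adjusted p = 0.00226, limma). The receptor of KITLG, KIT, was low throughout, at 2.87 CPM in DMSO, 1.05 in Nutlin, 1.84 in PD24, 0.791 in PD30, 0.895 in N+PD24 and 0.273 in N+PD30. PDGFRA, a receptor of platelet-derived growth factors, fell in PD30 (log2 fold change -1.93) and did not return, with 6.59 CPM in PD24 against 27.1 in DMSO.

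**Figure D5:**
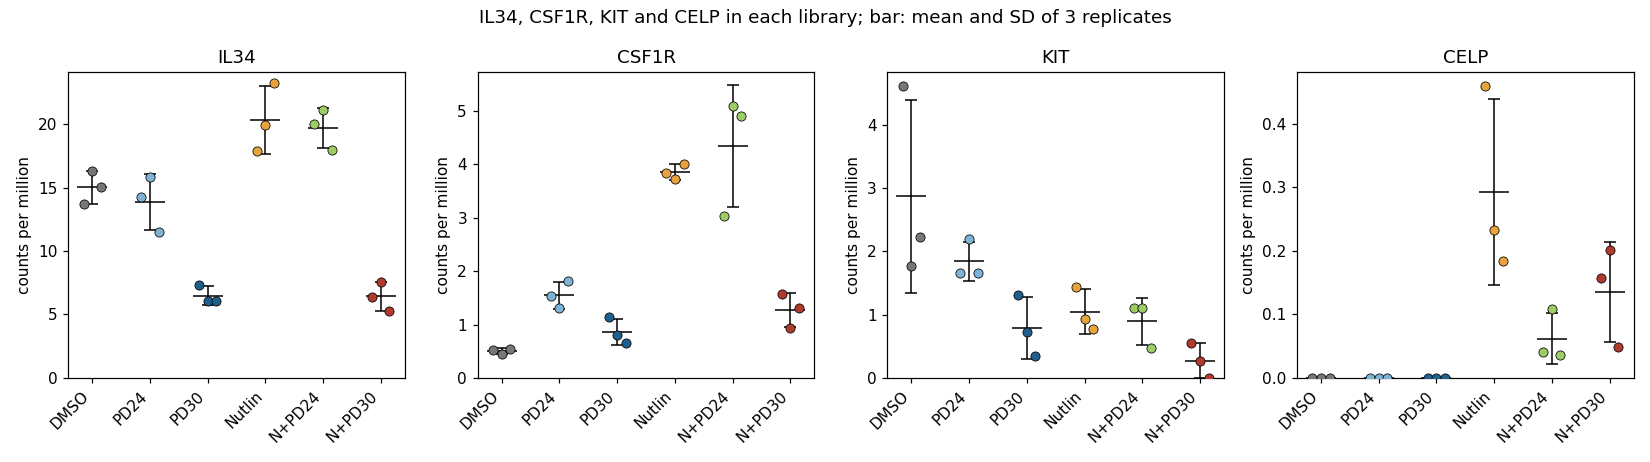
CPM (linear axes, 1 scale per gene) of IL34, CSF1R, KIT and the pseudogene CELP in each library, with the mean and SD of 3 replicates. IL34 and CSF1R are higher in each N+PD24 library than in the N+PD30 libraries, and CELP has no counts in the 9 libraries without Nutlin.

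CEL has a pseudogene, CELP, 10.7 kb away at chr9:135957948-135962640, with which its reads may be split, so the levels of both are uncertain. CELP had no counts in the DMSO, PD24 and PD30 libraries and 14, 7 and 5 counts in the Nutlin libraries. With a floor of 3 counts over the DMSO group, that is at least 9.17-fold higher. N+PD24 held 1, 4 and 1 counts and N+PD30 held 2, 6 and 1 counts, a ratio of N+PD24 to N+PD30 of 0.473 (exact 95% counting interval 0.138 to 1.49). CELP thus did not show a recovery at this depth.

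The flanking genes GTF3C5 and RALGDS shared some steps with CEL and not others. GTF3C5, a subunit of a transcription factor of RNA polymerase III, averaged 75.1 CPM in DMSO, 49.0 in Nutlin, 39.4 in N+PD30 and 31.1 in N+PD24. RALGDS, an exchange factor of Ral proteins, averaged 22.4, 45.6, 75.1 and 34.8 CPM in the same order. RALGDS thus rose with Nutlin, as CEL did, but was highest in N+PD30. GFI1B, the next gene, stayed at or near 0.

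Related lipases and carboxylesterases responded each in its own way. Of 14 others, 7 were tested in PD30 against DMSO, of which 3 rose and 2 fell, where 22.9% and 25.4% of all genes did. LPL, the lipoprotein lipase, fell from 69.4 CPM in DMSO to 5.30 in PD30 (log2 fold change -3.73, adjusted p = 2.34e-08, edgeR) and was 5.63 CPM in N+PD24. LIPG, the endothelial lipase, rose from 14.7 to 146.1 CPM. CES2, a carboxylesterase, rose with Nutlin from 34.5 to 82.7 CPM and stood at 110.4 CPM in N+PD30. CES3 averaged 4.41 CPM in Nutlin, 2.27 in N+PD30 and 3.66 in N+PD24.

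Markers of the cell types best known for PADI4 and CEL were low, and some moved with the treatments. The 9 neutrophil markers summed to 0.139 to 0.667 CPM in DMSO, 0.852 to 1.55 in Nutlin, 0.373 to 0.572 in PD24, 0.539 to 0.861 in PD30, 0.574 to 1.62 in N+PD24 and 0.968 to 1.18 in N+PD30. The sums in DMSO and Nutlin did not overlap. The granule protein gene AZU1 had 5 counts in DMSO and 26 in Nutlin, 18 of them in replicate 3, and 4 in N+PD30. PRTN3 of the same list went another way, with 2 counts in DMSO, 6 in Nutlin, 17 in PD30 and 32 in N+PD30, its highest group. FCGR3B had no counts in any group.

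The 9 pancreatic acinar markers summed to 0.0909 to 0.420 CPM in DMSO, 0.361 to 0.811 in Nutlin, 0.781 to 3.63 in PD24, 0.667 to 2.36 in PD30, 1.18 to 2.13 in N+PD30 and 2.75 to 4.59 in N+PD24. In N+PD24 the largest contribution came from SPINK1, a trypsin inhibitor that other tissues also express, with a mean of 2.73 CPM, against 0.185 CPM in Nutlin. CPA1, a pancreatic carboxypeptidase, had no counts in DMSO, 20 in Nutlin, 2 in PD24, 3 in PD30, 5 in N+PD30 and 45 in N+PD24. It was thus, like CEL, lower in N+PD30 than in Nutlin and N+PD24, though highest in N+PD24. CELA3A, an elastase gene, had 3 counts in N+PD24, 1 in N+PD30 and none in the other groups. The part of either marker list in the PADI4 and CEL values was not tested.

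The genes most like each member were found by Pearson correlation of log2(CPM + 0.1) over the 18 libraries, which share groups and treatments, among 13559 genes with a mean of at least 1 CPM. For PADI4 they were TBX4, a limb transcription factor (r = 0.962), HGFAC, a serine protease (0.962), RGS20, a regulator of G proteins (0.959), and SDK2, an adhesion protein (0.957). TBX4 averaged 0.0735 CPM in DMSO, 13.6 in Nutlin, 0.632 in N+PD30 and 3.36 in N+PD24.

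For KITLG they were SIPA1L2 (0.953), EPHB3, an ephrin receptor (0.944), SMTN, the smooth muscle protein smoothelin (0.927), and DEPDC7 (0.920). SMTN fell from 39.1 CPM in DMSO to 6.86 in PD30 and stood at 24.2 in PD24. For CEL they were CATSPERD, a sperm channel subunit (0.969), ELN, which encodes elastin (0.955), IGF1R, the insulin-like growth factor receptor (0.954), and LOC284798 (0.952). None of these 12 genes is in the p53 target list, and by Spearman correlation only SIPA1L2 kept rank 1. The members correlated with each other at 0.902 (PADI4 and CEL), 0.785 (PADI4 and KITLG) and 0.646 (KITLG and CEL).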

How the data were processed

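RNA was sequenced from 18 SJSA libraries. The authors aligned reads to hg19 with TopHat and Bowtie2 and counted exons with HTSeq 0.6.0. Whether the kit marks strand is not given in the sources used here. Counts for 15 libraries were deposited raw. The N+PD24 values were deposited by the authors as signal, counts divided by size factors, and 100% of the values gave whole reads (tolerance 0.05). Deposited fold changes, p-values and pooled means were not used. PADI4, KITLG, CEL and all lists were chosen with earlier results of these data known. Count groups were compared with edgeR 4.0.16 (TMM, filterByExpr, quasi-likelihood, R 4.3.3). Contrasts with N+PD24 used limma 3.58.1 on log2(CPM + 0.1) for genes at 0.5 CPM or more in 3 libraries. edgeR on the recovered reads called 5713 genes in N+PD24 against PD24, and limma 5678. A gene passed at a Benjamini-Hochberg adjusted p under 0.05. Named genes were the members, their families and neighbours, the 4 most correlated genes, CDKN1A, MDM2, TP53I3, the 4 p53 targets that rose and the 4 that fell most in each removal contrast, and those nearest to the members. One gene that this rule names is not reported here. Same-numbered libraries correlated above 0.1 in PD24 against DMSO, PD24 against PD30, N+PD24 against PD24, N+PD24 against Nutlin and N+PD30 against PD30. This was seen in the data and not in the labels. In PD24 against DMSO and N+PD30 against PD30, differently numbered libraries reached 0.489 and 0.409, so a pairing by number is unclear there. Scripts were tested on simulated data. Alternatives were other scaling, DESeq2 1.42.0, filters, pseudocounts, the replicate block and leaving out each library.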

Additional observations from a re-analysis of the deposited data

Results flagged for a closer look

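The effects of the 2 palbociclib schedules on 12 genes differed, by the direct test of PD24 against PD30 in edgeR (adjusted p under 0.05). They come from the members and their families, of which KITLG, 2 deiminase genes, 11 relatives of KITLG and 7 lipases or carboxylesterases were tested. Of all 15171 tested genes, 12.9% were higher in PD24 than in PD30 and 12.2% lower. In log2 units KITLG was higher after removal by 2.51. Among its relatives the difference was 0.52 for CSF1, 0.90 for CSF1R, 0.80 for FLT3LG, 1.13 for IL34, 1.27 for KIT, 0.90 for PDGFA and -0.50 for PDGFC. PADI1 differed by 1.24. Of the lipases, LIPA differed by -0.43, LIPG by -1.34 and LPL by 1.03. With 1 library left out, the call was lost in 5 of 6 fits for KIT, 4 for CSF1R and FLT3LG, 2 for LIPG and LPL and 1 for LIPA.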

How the results depend on the processing

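Of 85 alternatives for the fits of the members, 83 kept the direction and the side of the threshold. The 85 include 10 for PADI4 and 10 for CEL in N+PD24 against PD24, where the filtered fit is no test of these genes. KITLG in PD24 against DMSO passed with the replicate block (-0.35 on the log2 scale, adjusted p = 0.0426), which changed no other call of a member. CEL in PD30 against DMSO, which did not pass, ranged from -0.14 (without PD30 replicate 3) to 0.29 with 1 library left out. The counts of genes past the test were 7307 (PD30 against DMSO), 5781 (PD24 against DMSO), 3816 (PD24 against PD30) and 5678 (N+PD24 against PD24). With an absolute log2 fold change over 1 required as well they were 2305, 1898, 1137 and 2357. The replicate block gave 6107 for PD24 against PD30. With 1 library left out the counts ranged from 2178 (without PD30 replicate 1) to 4117 for PD24 against PD30 and from 3564 (without N+PD24 replicate 2) to 4868 for N+PD24 against PD24. Leaving out an N+PD24 library took PADI4 and CEL below the level filter of that contrast, so they were refitted only without each PD24 library. Depth limits PADI4 and CEL, which had at most 90 and 82 counts in a library.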
